A study of Homo sapiens with 6 samples.

Results

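The genes described here encode REST and the corepressors it recruits: REST itself, the CoREST scaffolds RCOR1, RCOR2 and RCOR3, the demethylase KDM1A, the deacetylases HDAC1 and HDAC2, and the SIN3 scaffolds SIN3A and SIN3B. They were chosen by name, and all 9 were found among the 17170 genes of the deposited table. The series describes poly(A) RNA sequencing of the established line NCI-H69, which was derived from a small cell lung cancer and is known as a neuroendocrine line. Per the labels, 3 control samples are cells that received Cas9 with a non-targeting guide RNA, and 3 samples are stable CRISPR/Cas9 knockouts of SCRMP, the product of an open reading frame in MIR7-3HG. The labels do not say whether either group is a clone or a pool, and they call the samples biological replicates without saying how far apart the cultures were, so the SDs below may be technical in part. Of the column names that the labels state, the 3 for control samples were found in the table and 0 of the 3 for knockout samples were. The table holds 3 further libraries under names that begin with si_A, which match no label. Whether they are the knockout is not known, and they were not used. Every value is therefore from the 3 libraries labelled control, and knockout was not compared with control.

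REST (RE1 silencing transcription factor) is a zinc finger protein that binds a long DNA element, RE1, near many neuronal genes and keeps them silent in cells that are not neurons. Its N-terminal domain recruits SIN3 scaffolds and its C-terminal domain recruits CoREST, and both platforms carry HDAC1 and HDAC2, which remove acetyl groups from histones. CoREST also carries KDM1A (LSD1), which removes methyl groups from histone H3 and is held on nucleosomes by the CoREST scaffold. In small cell lung cancer, low REST is known as a feature of neuroendocrine cells, and REST is known to rise where Notch signalling moves cells away from that state.

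The libraries held between 20941185 and 22477571 estimated reads, and read counts of library pairs differed by more than sampling noise (chi-square per degree of freedom of 6.18 to 15.8), so none was a second copy of another. The labelled cell type was poorly matched by its markers, so it is in doubt which cells the libraries labelled NCI-H69 control hold. Of all genes of the table, 66.5% were at 1 TPM (a level scaled to sequencing depth and transcript length) or more in every library. Of 10 neuroendocrine markers, 1 was at that level. That marker was NCAM1, an adhesion molecule, with 25.7 TPM ± 3.66 (SD, n = 3 here and throughout), while SYP had 0.717 TPM ± 0.205, INSM1 0.650 TPM ± 0.0458 and SCG3 0.020 TPM in each library. The summed level of the 10 ranged from 23.5 to 31.4 TPM. Of 9 fibroblast and mesenchymal markers, 8 were at 1 TPM or more, with VIM at 4542 TPM ± 87.8, POSTN at 693.8 TPM ± 96.2, COL3A1 at 567.5 TPM ± 19.0 and the lowest, PDGFRB, at 0.533 TPM ± 0.140, and their sum ranged from 6196 to 6240 TPM. Of 5 measured leukocyte and endothelial markers, 0 were at 1 TPM in every library; PTPRC had 0.517 TPM ± 0.343 and LYZ 0.467 TPM ± 0.176, the lowest was VWF (0.020 TPM ± 0.0265), and their sum ranged from 1.87 to 2.30 TPM. The part of these cell identities in the levels below was not tested, and in bulk RNA fewer cells of a type cannot be told apart from less RNA per cell.

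The element that gives REST its name can be looked for in promoter sequence. The core searched here is the half-site CAGCACC followed, after any 2 bases, by the half-site GGACAG, on either strand, in windows from 250 bases before to 50 bases after each annotated start (RefSeq, GRCh38.p14). It was found at 18 distinct places in the windows of 16 of 27305 genes (0.0586%). The stretches below belong to genes with a measured level. Of these genes, only GRIA2, SYN1 and RPH3A are on the list of REST target genes described further below. They are shown because they carry the exact core, read 5′ to 3′ on the strand on which the core reads forward, with the half-sites in capitals.
GRIA2, chr4:157220377-157220421, minus strand: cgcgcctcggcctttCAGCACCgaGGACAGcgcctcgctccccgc
SYN1, chrX:47620059-47620103, minus strand: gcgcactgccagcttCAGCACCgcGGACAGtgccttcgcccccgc
LHX3, chr9:136205129-136205168, minus strand: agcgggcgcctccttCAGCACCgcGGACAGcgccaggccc
BSX, chr11:122981948-122981992, minus strand: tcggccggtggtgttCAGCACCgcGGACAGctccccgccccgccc
UCN, chr2:27308588-27308632, minus strand: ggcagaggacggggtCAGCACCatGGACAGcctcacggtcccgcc
FAM163B, chr9:133609468-133609512, minus strand: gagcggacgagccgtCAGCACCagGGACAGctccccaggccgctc
OGDHL, chr10:49762410-49762454, minus strand: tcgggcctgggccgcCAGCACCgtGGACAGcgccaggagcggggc
In the 3 other measured genes an annotated exon overlapped the core or the bases beside it, so only the core itself is given.
RPH3A: CAGCACCacGGACAG
TMEM179: CAGCACCgcGGACAG
TTC9B: CAGCACCggGGACAG
The levels of these genes are given after those of the repressors.

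All 9 repressor genes were expressed. Each was at 1 TPM or more in every control library, as were 66.5% of all genes of the table, and each had a mean of at least 10 TPM, as did 44.1% of all genes. In order of mean level, HDAC2 was highest, followed by KDM1A, HDAC1, RCOR3, RCOR2, SIN3A, RCOR1 and SIN3B, and REST was lowest. The enzymes thus stood at the top of the order and the DNA-binding factor at its end. The order of neighbouring genes was the same in each of the 3 libraries. The ranges over libraries overlapped for 3 of the 8 neighbouring pairs, which were KDM1A with HDAC1, SIN3A with RCOR1 and SIN3B with REST, so the ranges do not separate these pairs. Taken within a library, the higher gene of each pair exceeded the lower in 3 of 3 libraries, by a log2 ratio of 0.06 ± 0.06 for KDM1A over HDAC1, 0.17 ± 0.15 for SIN3A over RCOR1 and 0.41 ± 0.24 for SIN3B over REST. Of all 36 pairs among the 9 genes, the same 3 overlapped.

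**Figure D1:**
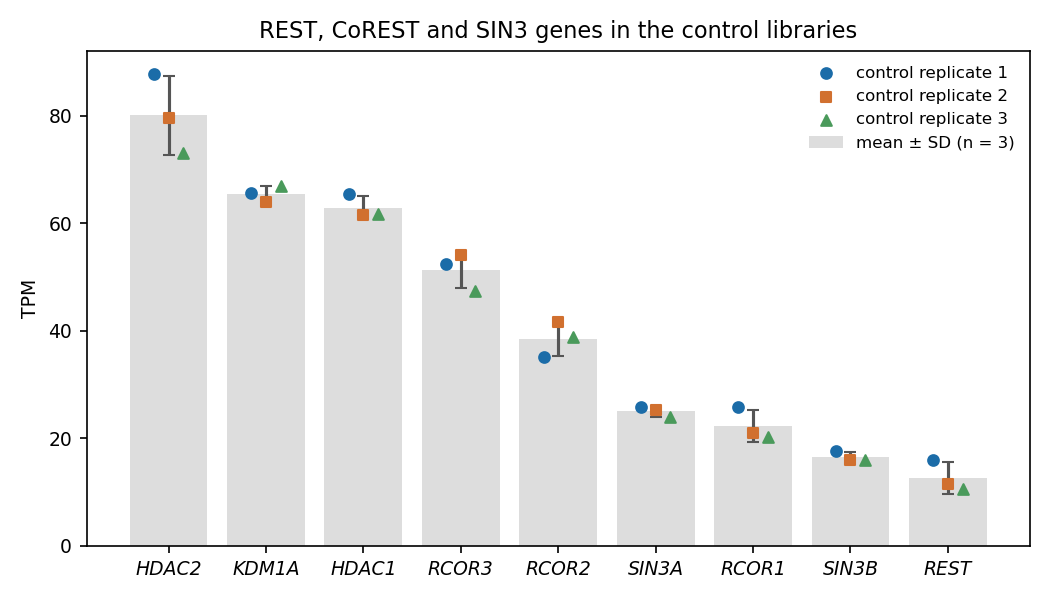
Level in TPM (vertical axis, from 0) of each of the 9 genes; bars and error bars are the mean ± SD of 3 control libraries and points are the libraries. HDAC2 is highest at 80.1 TPM and REST lowest at 12.6 TPM, and control replicate 1 lies above the other libraries for REST and RCOR1 and below them for RCOR2.

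REST (gene number 5978, chromosome 4, 56907900 to 56935844, plus strand, GRCh38.p14) had 15.96, 11.39 and 10.50 TPM in control replicates 1, 2 and 3, a mean of 12.6 TPM ± 2.93. It was above the median gene of the table, which had 6.87 TPM, and was placed 6860 among 17170 genes. Replicate 1 stood apart from the other libraries, which were close to each other. The coefficient of variation was 23.2%, higher than that of 99.2% of the 7577 genes with a mean of at least 10 TPM, whose median was 6.11%. REST rested on 1346, 1056 and 989 estimated reads, so counting error was at most 3.18% in a library and was far smaller than the spread. Without replicate 1 its mean was 10.9 TPM. A stretch of 23 exon bases of REST (0.288%) is shared with NOA1, a mitochondrial GTPase gene on the opposite strand with 60.7 TPM.

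The CoREST scaffolds differed from each other. RCOR3 (gene number 55758, chromosome 1, 211259366 to 211316385, plus strand) was the highest, with 52.35, 54.08 and 47.43 TPM and a mean of 51.3 TPM ± 3.45. RCOR2 (gene number 283248, chromosome 11, 63911230 to 63927762, minus strand), a paralog known from embryonic stem cells and neural progenitors, had 35.05, 41.60 and 38.79 TPM and a mean of 38.5 TPM ± 3.29. RCOR1 (gene number 23186, chromosome 14, 102592649 to 102730561, plus strand), the founding CoREST protein, had 25.75, 20.93 and 20.25 TPM and a mean of 22.3 TPM ± 3.00. The 3 ranges did not overlap, and RCOR1 was the lowest of the 3 in every library.

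Within a library, RCOR2 exceeded RCOR1 by 0.79 ± 0.30 on the log2 scale (1.73-fold), with differences of 0.44, 0.99 and 0.94 in replicates 1, 2 and 3. The gap was thus narrower in replicate 1, where RCOR1 was at its highest and RCOR2 at its lowest. The log2 ratio of RCOR2 to RCOR3 was -0.42 ± 0.15, and that of RCOR1 to RCOR3 was -1.21 ± 0.17, that is, RCOR3 was 2.31-fold higher than RCOR1. Each of the 9 ratios computed between members had the same sign in 3 of 3 libraries. An exact sign-flip permutation test (two-sided) gave p = 0.25 for each, and 0.25 after Benjamini-Hochberg adjustment over the 9 ratios, which is the smallest p that 3 libraries permit, so no ratio could pass 0.05.

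Of the summed TPM of the scaffolds, RCOR3 made up 45.7% ± 1.03, RCOR2 34.4% ± 2.96 and RCOR1 19.9% ± 2.52. The sum was 113.2, 116.6 and 106.5 TPM in replicates 1, 2 and 3, a mean of 112.1 TPM ± 5.15. RCOR1 and RCOR2 deviated in opposite directions in replicate 1, so the sum in that library lay between those of the others. The scaffolds together had 1.71 ± 0.118 times the level of KDM1A and 9.16 ± 1.79 times that of REST.

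**Figure D2:**
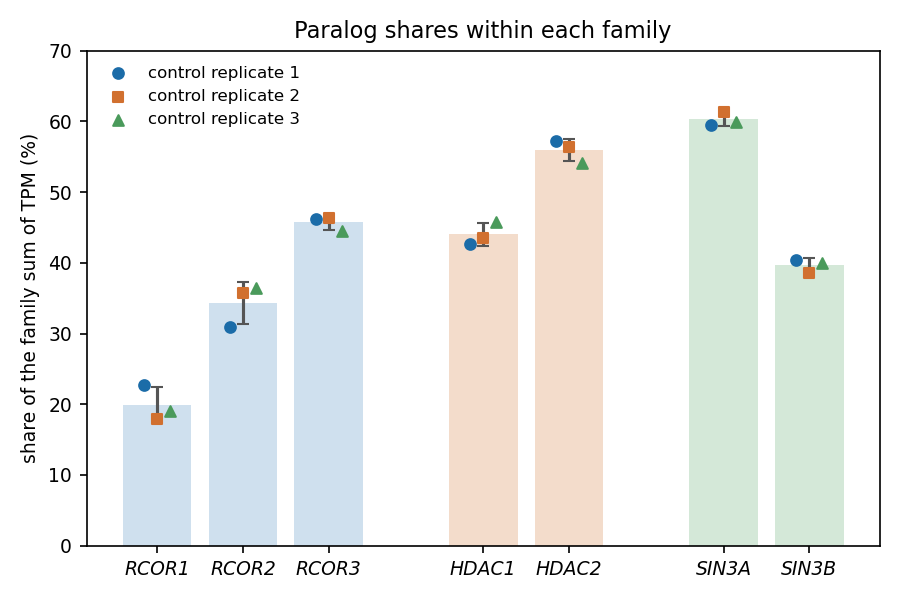
Share of each paralog in the summed TPM of its family (vertical axis, percent, from 0); bars and error bars are the mean ± SD of 3 control libraries and points are the libraries. RCOR3 holds 45.7%, RCOR2 34.4% and RCOR1 19.9% of the RCOR sum, and the deacetylase and SIN3 families are split less unequally.

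The enzymes of the complex were the highest members, and KDM1A was the steadiest of all. KDM1A (gene number 23028, chromosome 1, 23019468 to 23083689, plus strand) had 65.60, 63.84 and 66.89 TPM, a mean of 65.4 TPM ± 1.53 and a coefficient of variation of 2.34%, the lowest of the 9 genes. It was 2.95-fold higher than RCOR1 (log2 ratio 1.56 ± 0.19) and 1.70-fold higher than RCOR2 (0.77 ± 0.14). HDAC2 (gene number 3066, chromosome 6, 113933028 to 113971148, minus strand) had 87.67, 79.63 and 72.98 TPM, a mean of 80.1 TPM ± 7.36. HDAC1 (gene number 3065, chromosome 1, 32292083 to 32333626, plus strand) had 65.40, 61.46 and 61.75 TPM, a mean of 62.9 TPM ± 2.20. HDAC2 was above HDAC1 in every library without overlap, and the log2 ratio of HDAC1 to HDAC2 was -0.35 ± 0.09. HDAC1 made up 44.0% ± 1.61 of the sum of both. GENCODE names 2 pseudogene copies of HDAC1, neither of which has a row in the table. The labels do not say how reads shared with such copies were counted.

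The SIN3 scaffolds were lower than the enzymes. SIN3A (gene number 25942, chromosome 15, 75369379 to 75455815, minus strand) had 25.79, 25.30 and 23.89 TPM, a mean of 24.99 TPM ± 0.986. SIN3B (gene number 23309, chromosome 19, 16829398 to 16880349, plus strand) had 17.52, 15.92 and 15.96 TPM, a mean of 16.5 TPM ± 0.912. SIN3A was 1.52-fold higher (log2 ratio 0.60 ± 0.06), made up 60.3% ± 0.962 of the sum of both, and was above SIN3B in every library. SIN3A had about as many reads as KDM1A, with 1995 against 2351 in replicate 1, although its TPM was far lower. TPM divides reads by transcript length, and 1 TPM of SIN3A corresponded to 82.4 estimated reads, against 38.2 for KDM1A, 26.3 for HDAC1 and 89.6 for REST.

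Among the members, control replicate 1 differed from the other libraries most for REST. The log2 ratio of TPM in replicate 1 to the mean of replicates 2 and 3 was 0.54 for REST and 0.32 for RCOR1, and it was -0.20 for RCOR2. Over the 7577 genes of at least 10 TPM the median of this ratio was 0.06, and 5% of genes lay below -0.17 and 5% above 0.34. Of the 9 members, only REST and, narrowly, RCOR2 lay outside these limits. A ratio as high as that of REST was reached by 0.251% of these genes, one as high as that of RCOR1 by 5.89%, and one as low as that of RCOR2 by 3.80%. Replicate 1 was the highest library for 6 of the 9 members and for 54.6% of the 7577 genes. Across these genes the ratio moved with the number of reads per TPM, a measure of transcript length (Spearman's rho 0.44, which describes genes of the same 3 libraries and is no test). REST and RCOR1, at 89.6 and 71.8 reads per TPM, were above the median of 32.3. Also above it were SIN3A at 82.4 and SIN3B at 63.2, with ratios of 0.07 and 0.14. RCOR2, KDM1A and RCOR3 were above it by less, with ratios of -0.20, 0.005 and 0.04. HDAC2 and HDAC1, at 27.6 and 26.3 reads per TPM, were below it, with ratios of 0.20 and 0.09. The part of transcript length in the REST difference was not tested.

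**Figure D3:**
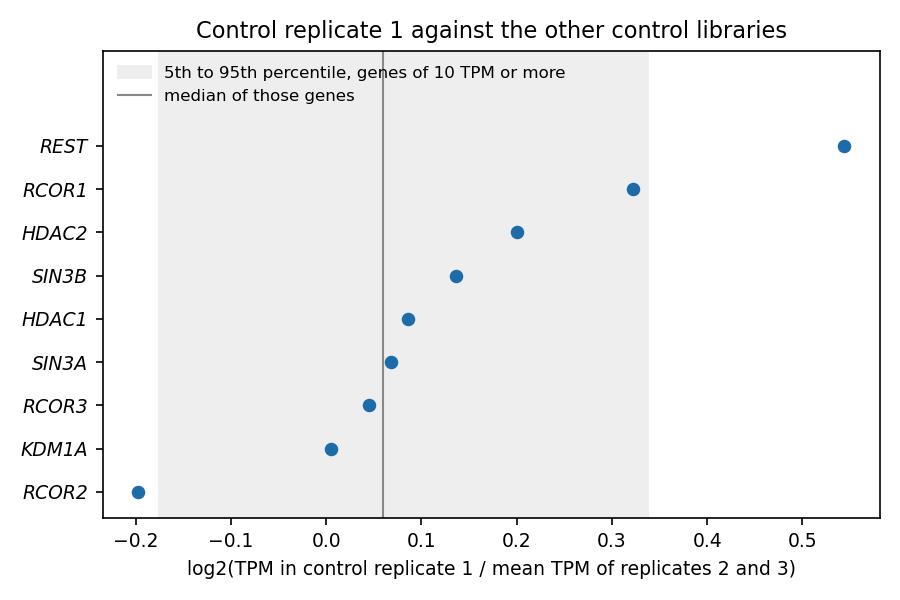
Log2 ratio of TPM in control replicate 1 to the mean of control replicates 2 and 3 (horizontal axis) for each of the 9 genes; the band spans the 5th to 95th percentile and the line the median of the 7577 genes with a mean of at least 10 TPM. REST, at 0.54, lies above the band and RCOR2, at -0.20, below it.

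Genes for the other proteins that build or recruit CoREST were mostly expressed. These are levels of RNA, not of protein. Of 19 genes in this list, 16 were at 1 TPM or more in every library, as were 66.5% of all genes. The median over genes of the list was 30.3 TPM ± 0.812. HMG20B, a DNA-bending subunit of the CoREST complex, was highest at 70.7 TPM ± 2.86, followed by the corepressors CTBP1 (50.2 TPM ± 1.01) and CTBP2 (37.7 TPM ± 2.17). The 3 genes below 1 TPM all encode DNA-binding repressors that recruit CoREST through a SNAG domain: INSM1, GFI1 (0.603 TPM ± 0.198) and GFI1B (0.130 TPM ± 0.0361), the last of which was lowest. INSM1 is also one of the neuroendocrine markers, and GFI1 and INSM1 are named here because they are the exceptions.

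Genes for the subunits that join SIN3A or SIN3B were all expressed. Of 18 genes, 18 were at 1 TPM or more in every library, as were 66.5% of all genes. The median of the list was 22.2 TPM ± 0.428. MORF4L1, a chromodomain protein, was highest at 278.9 TPM ± 12.5, followed by SINHCAF (128.1 TPM ± 1.48) and SAP18 (124.8 TPM ± 3.18), and SAP30L was lowest at 3.48 TPM ± 0.210. MORF4L1 is shared with acetyltransferase complexes, so its level is not a measure of SIN3 complexes alone.

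Among 10 genes that act on REST protein, its transcript or its transport, 9 were at 1 TPM or more in every library. The share over all genes was 66.5%. The list median was 18.6 TPM ± 0.555. BTRC and FBXW11, the paralogous F-box proteins that mark REST for degradation, had 11.8 TPM ± 0.838 and 28.4 TPM ± 3.05. The deubiquitinases USP7 and USP15, which can spare REST from degradation, had 35.6 TPM ± 6.13 and 17.7 TPM ± 0.801. USP7 had 42.43 TPM in replicate 1 against 33.57 and 30.67 TPM. Of the 10 genes of the list, 5 were highest in replicate 1. That is near the share over genes with a mean of at least 10 TPM, which was 54.6%. The small phosphatases CTDSP1, CTDSP2 and CTDSPL, which are recruited to REST, had 20.7 TPM ± 0.803, 19.6 TPM ± 1.22 and 4.79 TPM ± 0.295. The kinase CSNK1E had 52.8 TPM ± 1.45, and PRICKLE1, a LIM domain protein that binds REST, 12.5 TPM ± 0.875. SRRM4, the neural splicing factor that diverts REST transcripts to a truncated form, had 0.98, 1.00 and 1.16 TPM, at the limit used for detection, and was the member of the list that was not counted.

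By level, the genes most like REST were MIER3 (12.4 TPM ± 1.95), a scaffold of another deacetylase complex, then PRICKLE1 and BTRC. Their Euclidean distances from REST in log2(TPM + 1) over the 3 libraries were 0.15, 0.29 and 0.31. The 84 genes compared were the other members, CoREST cofactors and recruiters, SIN3 subunits, other deacetylase complexes, related enzymes and the REST turnover list. RCOR2 was close in level to HDAC8 (34.7 TPM ± 1.52) and GATAD2A (37.6 TPM ± 1.90), at distances of 0.26 and 0.27. These distances describe likeness of level in 3 libraries of a single group.

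**Figure D4:**
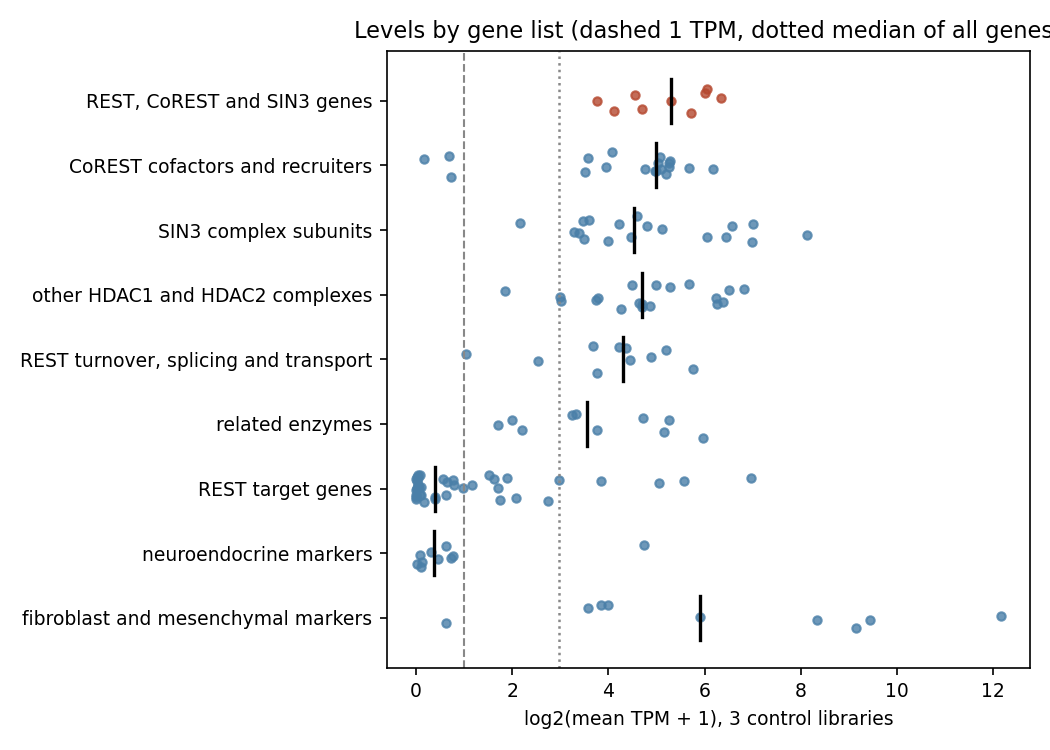
Log2(mean TPM + 1) over 3 control libraries (horizontal axis) for each measured gene of each list; points are genes, scattered vertically for visibility, and thick bars are list medians. The corepressor lists have medians to the right of the dotted median of all genes, and the lists of REST target genes and neuroendocrine markers have medians left of the dashed line at 1 TPM.

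Genes known as targets of REST were mostly below 1 TPM in the same libraries. The list has 45 genes, of which 40 were measured, and 13 of these (32.5%) were at 1 TPM or more in every library, against 66.5% of all genes. The median over the 40 genes was 0.302 TPM ± 0.0778, against 6.83 TPM ± 0.461 over all genes, and 18 of the 40 (45%) had a mean below 0.1 TPM, against 18.3% of all genes. The list was written from textbook knowledge of neuronal genes and shares CHGA, CHGB, SCG3 and SYP with the neuroendocrine markers, so low neuroendocrine genes lower it too. Genes near 0 included the sodium channel genes SCN2A (0, 0.01 and 0.02 TPM) and SCN3A (0, 0.01 and 0 TPM), each with at most 2 reads in a library. SCN2A, a classical RE1 gene, is named after its values were seen. The calcium pump gene ATP2B2, which has the same mean as SCN3A, had 0.01 TPM in replicate 1 and 0 in the others.

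Of the 40 target genes, 4 reached 10 TPM. TUBB3, neuronal beta-tubulin, had 118.4, 136.4 and 118.9 TPM, a mean of 124.6 TPM ± 10.2. GAD1, an enzyme that makes the transmitter GABA, had 44.72, 46.02 and 49.68 TPM, a mean of 46.8 TPM ± 2.57. STMN3, a microtubule-destabilising stathmin, had 28.39, 31.34 and 36.60 TPM, a mean of 32.1 TPM ± 4.16. BDNF, a neurotrophin, had 13.42, 13.25 and 13.37 TPM, a mean of 13.3 TPM ± 0.0874. TUBB3 was highest in replicate 2, GAD1 and STMN3 were highest in replicate 3, and BDNF hardly varied.

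The genes whose promoter window held the exact RE1 core, which were found from sequence alone, were low as well. Of the 16 genes, 10 had a measured level, and 2 of these (20.0%) were at 1 TPM or more in every library, against 66.5% of all genes. Their median was 0.0633 TPM, and 0 of the 10 reached 10 TPM. The AMPA receptor gene GRIA2 had 0.02, 0.01 and 0 TPM, the synaptic vesicle gene SYN1 0, 0.02 and 0 TPM, and RPH3A, which encodes the vesicle protein rabphilin, 0, 0 and 0.02 TPM. These 3 genes and GAD2, which has no measured level, are also on the list of target genes. The homeobox genes BSX and LHX3 had 0.030 TPM ± 0.052 and 0.113 TPM ± 0.00577, and UCN, which encodes the peptide urocortin, 0.673 TPM ± 0.139.

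The 2 genes that reached 1 TPM were OGDHL, a paralog of a Krebs cycle enzyme subunit, with 7.01, 7.4 and 8.06 TPM, and TMEM179 with 2.23, 2.07 and 2.48 TPM. OGDHL carried its core centred at -109 and at -53 from its 2 annotated starts, which is the same place on the chromosome.

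Either half-site alone did not go with low levels. The half-site CAGCACC was found in the windows of 9.29% of genes and GGACAG in those of 24.0%, which includes the windows with the full core. Of the measured genes among them, 65.6% in both cases were at 1 TPM or more in every library, next to the 66.5% of all genes. Allowing at most 1 mismatch in the core gave 45 measured genes, which include the 10 with the exact core. Of the 45, 19 (42.2%) were at 1 TPM or more and 10 reached 10 TPM, with a median of 0.587 TPM. Of the 33 target genes with a promoter entry, 4 (12.1%) held the exact core. Of the repressor genes themselves, 8 had entries and 0 of them held the core, exact or with 1 mismatch. Over all genes searched, 0.0586% held the exact core and 0.278% a core with at most 1 mismatch. At such shares, 0 of 8 is no result about the repressor genes. A match in these windows is a description of the sequence; binding of REST was not measured, and the windows leave out elements farther from a start.

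**Figure D5:**
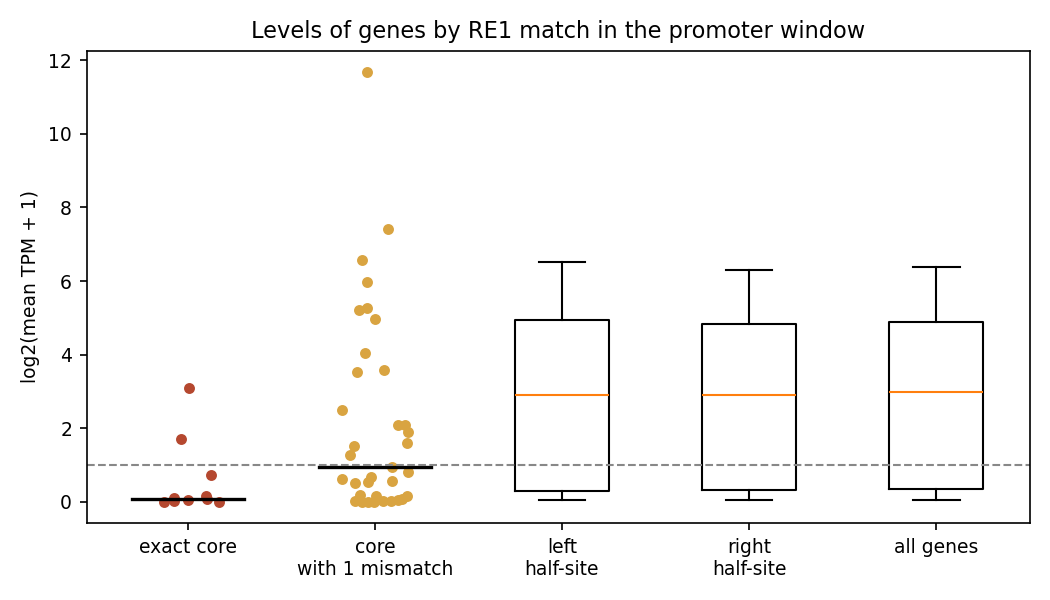
Log2(mean TPM + 1) over 3 control libraries (vertical axis) of measured genes grouped by what their promoter window holds; points are genes and thick bars medians for the exact core and for cores with exactly 1 mismatch, and boxes show quartiles with whiskers at the 10th and 90th percentile for either half-site and for all genes. Of 10 genes with the exact core 2 lie above the dashed line at 1 TPM, while the boxes for the half-sites nearly match that of all genes.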

How the data were processed

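Poly(A) RNA was sequenced on a DNBSEQ-T7 instrument from libraries that keep the strand, per the labels. HISAT2, StringTie, DESeq2 and GRCh38 stand in the submitters' processing notes without versions or roles. Per the file headers, the authors deposited TPM, FPKM and estimated counts of reads for each gene and library. The TPM of a library sum to 1000000. Columns were matched to samples by the names that the labels state. A further 12 columns of per-library values, named si_A, match no sample and were not used, so no test of knockout against control was run, although one had been planned.

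Each level is a mean ± SD of TPM over the 3 control libraries. A gene was counted as detected at 1 TPM or more in each of them. Log2 ratios between genes were taken within a library, with no pseudocount, and tested by exact sign-flip permutation. Estimated counts gave the counting error only, which does not cover spread between cultures. Positions are RefSeq (GRCh38.p14), strands and overlaps GENCODE 29. Promoter windows are RefSeq, and their orientation was checked against GENCODE transcripts, which held the end of the window for 66 of 85 windows on the plus strand and 71 of 101 on the minus strand. The motif search and the ratios were tested on simulated data.

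The 9 members and the 9 other gene lists were chosen with earlier results of these data known. Named genes are all members, the 3 highest and the lowest of each list, all 10 of the turnover list, target genes at 10 TPM or more, the 3 genes closest in level to REST and to RCOR2, and genes with an RE1 core; 2 genes of this rule are not reported here and stay in the counts and medians of their lists; others are marked as chosen after their values were seen. Values were computed with scipy 1.17.1, numpy 2.4.6 and pandas 2.3.3 in Python 3.11.15, and plotted with matplotlib 3.10.9. Alternatives were FPKM, TPM without ribosomal protein and MTRNR2L genes, an added 1 in ratios, other minimums and leaving out each library.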

Additional observations from a re-analysis of the deposited data

How the results depend on the processing

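No paired analysis was possible because the knockout samples have no columns matched to them by name; the replicate block, DESeq2 and unfiltered fits intended for the knockout comparison were not run. All 8 neighbouring pairs of the 9 genes kept their order under each of 5 alternatives, and all 54 alternative values of the 9 ratios kept their sign. These outcomes were fixed in advance and are no check. Each order and sign was the same in every control library, so leaving out 1 library could not reverse it. The other alternatives scale a whole library or add 1 to both genes, which cannot change which gene is higher. FPKM in place of TPM, scaled to the same total, left the levels as they were, since it differs by a factor per library. Without ribosomal protein and MTRNR2L genes all 9 levels were 1.45 times higher by construction. Leaving out 1 library changed the 9 levels to between 0.868 and 1.08 times their value, the lowest being REST without control replicate 1. Of 66 counts of detected genes under other minimums or without 1 library, 58 stayed within 1.5 times. Of all 17170 genes, 9023 were detected at a minimum of 5 TPM, 12047 at 0.5 TPM and 12541 at 10 estimated reads, against 11418. Of the 40 REST target genes, 6 were detected at a minimum of 5 TPM and 20 at 10 estimated reads, against 13. Of the neuroendocrine markers, 3 were detected at 0.5 TPM and 3 at 10 estimated reads, against 1. Of the leukocyte and endothelial markers, 1 was detected at 0.5 TPM and 1 at 10 estimated reads, against 0, and leaving out libraries gave 0 to 1, with 1 detected without control replicate 3. Of the 10 genes with the exact RE1 core, 1 was detected at 5 TPM, against 2. Allowing 1 mismatch, which was chosen after seeing the data, moved the share detected from 20.0% to 42.2%. Target genes with 0 to 3 reads in a library have levels that counting error alone could move several times over.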

Other observations

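HDAC1 and HDAC2 also serve complexes other than CoREST and SIN3, and genes for subunits of these were expressed in the control libraries. Of 19 genes of the NuRD, MiDAC, MIER, RERE and NCOR complexes, 19 were at 1 TPM or more in every library. The share over all genes was 66.5%. The median of the list was 25.6 TPM ± 2.02 (SD, n = 3). MTA1, a NuRD scaffold, was highest at 111.4 TPM ± 3.15. The NuRD remodeller CHD4 had 90.1 TPM ± 2.47 and DNTTIP1, the dimerising subunit of MiDAC, 82.3 TPM ± 0.939. TRERF1 was lowest at 2.61 TPM ± 0.206. MTA1 was thus higher than each CoREST or SIN3 scaffold named in the report, with no overlap between libraries.

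Related enzymes covered a wide range. Of 10 genes, 10 were at 1 TPM or more in every library, as were 66.5% of all genes. The median of the list was 11.0 TPM ± 0.424. HDAC3, the deacetylase of NCOR complexes, had 61.8 TPM ± 3.60, close to HDAC1. HDAC9 had 37.5 TPM ± 4.24 and HDAC8 34.7 TPM ± 1.52, and HDAC10 was lowest at 2.25 TPM ± 0.085. KDM1B, a paralog of KDM1A, had 9.85, 7.94 and 7.42 TPM, far below KDM1A in each library; it was chosen after its values were seen.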
